A study of Homo sapiens with 4 samples.

Results

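Fibronectin, the fibrillins, the thrombospondins, tenascin-C, SPARC, periostin, osteopontin and versican are secreted proteins of the extracellular matrix, and their genes are described here in a pair of breast cancer lines that differ in the activity of a Wnt reporter. The 10 genes, FN1, FBN1, FBN2, THBS1, THBS2, TNC, SPARC, POSTN, SPP1 and VCAN, were found by symbol among the 43714 gene IDs of the count table, 1 ID for each. They were chosen by what they encode, with no threshold on their values but with earlier results of these data known. The lines come from MDA-MB-231, an established human triple-negative breast cancer cell line, which lacks the oestrogen and progesterone receptors and HER2 amplification. Both carry the 7TGP reporter, a stably transfected vector in which 7 TCF sites drive EGFP and which was selected with 3 ug/mL puromycin. Fluorescence sorting over 8 rounds gave a reporter-negative line (MDA-MB-231 7TGP-NEG, more than 95% EGFP-negative) and a reporter-positive line (MDA-MB-231 7TGP-POS, more than 80% EGFP-positive). The labels name the first a Wnt-negative control. Both grew in DMEM with 10% serum, the labels name no other agent, and 2 libraries of total RNA were sequenced per line.

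The matrix around a cell is built from fibres and from proteins that sit on them. Fibronectin and the fibrillins assemble into fibrils, and fibronectin offers the sites that integrins bind. Matricellular proteins such as the thrombospondins, tenascin-C, SPARC, periostin and osteopontin carry little load and instead alter how cells attach, move and receive growth factors. Versican is a large chondroitin sulphate proteoglycan that binds hyaluronan. In breast tumours much of this matrix is made by fibroblasts, but mesenchymal-like cancer cells also make fibronectin, thrombospondin-1 and tenascin-C.

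Gene counts totalled 55894092 to 63034563 per library. Levels are given as CPM, counts scaled to library sizes that were adjusted by TMM, which aligns the bulk of genes between libraries. The 9 markers of the labelled mesenchymal line were all present and summed to 5427 and 5312 CPM in the 7TGP-NEG and 3861 and 4148 CPM in the 7TGP-POS libraries. VIM, the vimentin gene, fell from 2714 and 2625 to 1257 and 1343 CPM, CAV1, ANXA1 and S100A4 also fell, and CD44 and MSN rose. The 9 luminal epithelial markers summed to 431 and 440 CPM in the 7TGP-NEG and 332 and 357 CPM in the 7TGP-POS libraries, most of it from KRT8. Of these, KRT8, KRT18 and ERBB2 fell, FOXA1 rose from at most 7 to at least 33 counts, and CDH1, the E-cadherin gene, had 25 to 48 counts in all libraries. Some of the 10 fibroblast markers are themselves matrix genes. The 10 summed to 21.0 to 23.8 CPM in the 7TGP-NEG and 19.6 to 22.5 CPM in the 7TGP-POS libraries. None was at 0 in all libraries, LUM rose, and PDGFRB and ACTA2 fell. Endothelial and immune markers summed to 84.9 to 98.1 and 180.0 to 187 CPM in the 7TGP-NEG and 71.2 to 87.7 and 165 to 178 CPM in the 7TGP-POS libraries. Most of the endothelial sum came from PECAM1 and most of the immune sum from CSF1R. In these lists KDR rose, and CD68 and LYZ fell. The part of these markers in the results below was not tested. Whether the pair of libraries from each line are separate cultures is not stated, and the p-values therefore reflect only library-to-library spread, which may be technical. With 1 line per reporter state, the state of the reporter cannot be told apart from whatever else separates the lines, nor can fewer expressing cells and less RNA per cell.

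In the 7TGP-POS line THBS1, FBN1, TNC and VCAN rose and THBS2 fell. THBS1 was raised 1.97-fold, VCAN 1.91-fold, FBN1 1.52-fold and TNC 1.35-fold, and THBS2 was lowered 2.26-fold. FN1, FBN2, SPARC and POSTN did not pass the test, and SPP1 was too low to test. A gene is said to have risen or fallen where its adjusted p was under 0.05 (edgeR's quasi-likelihood test, Benjamini-Hochberg adjustment over all 30952 genes tested). Thus 5 of the 9 genes tested were called (55.6%), against 22.4% of all genes tested and 29.5% of protein-coding genes tested, and 4 rose, against 11.6% of all genes, and 1 fell, against 10.9%. The libraries of the lines did not overlap for 7 of the 9, which compares with 57.7% of all genes tested. The median log2 fold change was 0.44 for the 9 genes and -0.00 for all genes. Because the genes were chosen with earlier results of these data known, these shares are descriptive only.

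**Figure D1:**
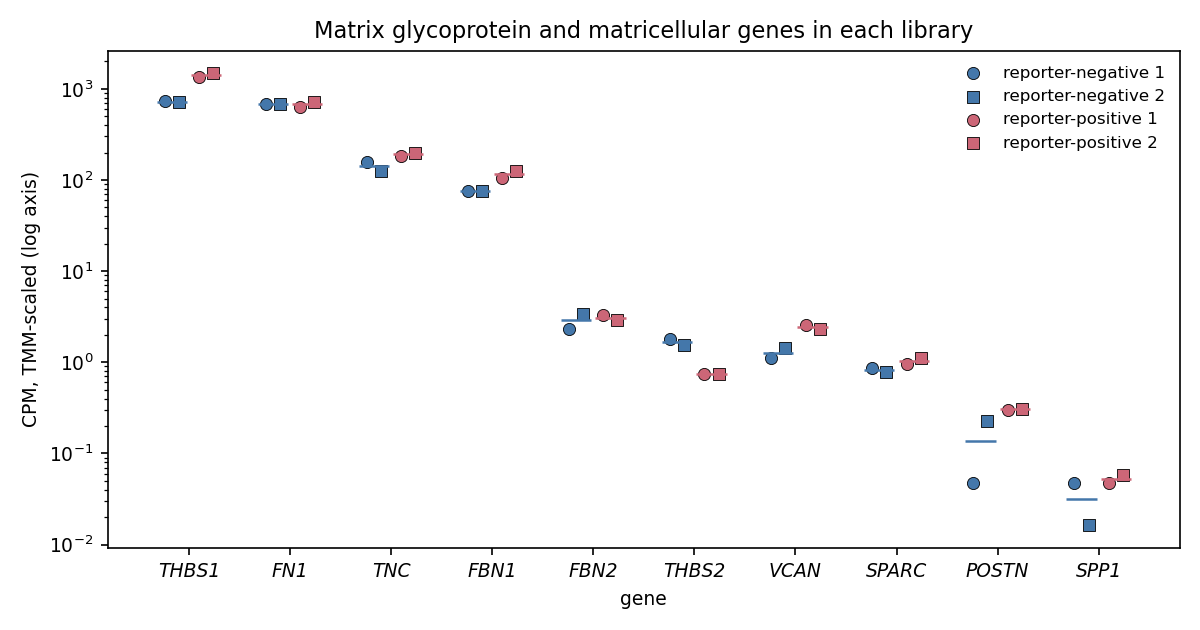
Level of each of the 10 genes in each library, in TMM-scaled CPM on a log axis, with blue for the reporter-negative and red for the reporter-positive libraries and short lines for the means of 2 libraries. THBS1, FN1, TNC and FBN1 lie above 70 CPM in every library and the other 6 genes below 4 CPM.

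The 10 genes fell into an abundant and a scarce group. Per kb of the longest protein-coding transcript, THBS1 stood at 92.6, FN1 at 76.4, TNC at 18.4 and FBN1 at 6.46 CPM per kb in the 7TGP-NEG line, and their libraries did not overlap in that order. The other 6 genes were at or below 0.290 CPM per kb there. In the 7TGP-POS line the order of the first 4 was the same, at 183, 75.7, 24.96 and 9.83 CPM per kb. Among the scarce genes, THBS2 had rank 5 of 10 in the 7TGP-NEG and rank 8 in the 7TGP-POS line. Neighbours whose libraries overlapped, and whose order is therefore not settled, were THBS2 and FBN2, FBN2 and SPARC, and POSTN and SPP1 in the 7TGP-NEG line, and SPARC and FBN2 in the 7TGP-POS line. Counts also include intronic reads and reads shared with overlapping genes, described below, so levels per transcript length are approximate.

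**Figure D2:**
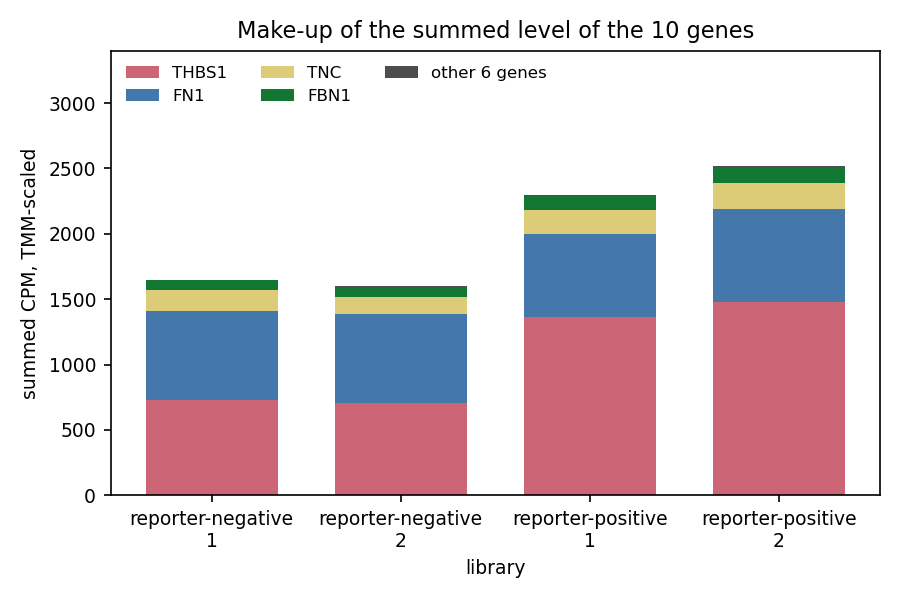
Summed TMM-scaled CPM of the 10 genes in each library, divided into THBS1, FN1, TNC, FBN1 and the other 6 genes, whose part is too small to see. The reporter-positive bars are taller mostly by the THBS1 part. It makes up 59.3% and 58.7% of them, against 44.4% and 44.3% in the reporter-negative libraries. The THBS1 part includes reads shared with the overlapping gene FSIP1.

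Summed over the 10 genes, the level was 1650 and 1597 CPM in the 7TGP-NEG and 2298 and 2518 CPM in the 7TGP-POS libraries. Most of that difference lay in THBS1. FN1 made up 41.1% and 42.6% of the sum in the 7TGP-NEG libraries and 27.7% and 28.2% in the 7TGP-POS libraries, although its own level did not pass the test. The number of THBS1 counts per FN1 count was 1.08 and 1.04 in the 7TGP-NEG and 2.14 and 2.08 in the 7TGP-POS libraries. Both lines thus had THBS1 and FN1 as their main transcripts of this group, in near equal counts in one line and with THBS1 ahead in the other. The THBS1 counts include reads shared with an overlapping gene, FSIP1, described below. With all FSIP1 counts taken off, THBS1 had 12773 and 11575 counts in the 7TGP-NEG and 22731 and 19361 in the 7TGP-POS libraries. Each of these was below the FN1 count of the same library. Taking FSIP1 off also removes the stretch with 79.0% of the longest THBS1 coding transcript, whereas FN1 was counted whole. The comparison therefore does not rank THBS1 against FN1.

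Thrombospondin-1, a trimeric matricellular glycoprotein that binds CD47, CD36 and integrins and can activate latent TGF-beta, is encoded by THBS1 (ENSG00000137801, chromosome 15, 39581079 to 39599466 on GRCh38, forward strand). THBS1 had 46486 and 43488 counts in the 7TGP-NEG and 85525 and 77439 in the 7TGP-POS libraries. Its level was 732 and 708 CPM in the former and 1362 and 1478 CPM in the latter, so the lines were far apart compared with their libraries. The mean went from 720 ± 17.0 to 1420 ± 82.2 CPM (SD, n = 2), a log2 fold change of 0.98, SE 0.09 and a 95% interval of 0.78 to 1.18 (adjusted p = 1.15e-07, edgeR with Benjamini-Hochberg).

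The 3′ part of THBS1, 60.4% of its span and 79.0% of its longest coding transcript, lies inside FSIP1, a gene on the opposite strand. Reads were counted toward every gene under them on either strand, so FSIP1 shows 33713, 31913, 62794 and 58078 counts that cannot be told apart from those of THBS1. With all FSIP1 counts taken off, THBS1 still had 12773 and 11575 counts in the 7TGP-NEG and 22731 and 19361 in the 7TGP-POS libraries. That remainder went from 195 ± 8.98 to 366 ± 5.36 CPM (SD, n = 2), 1.88 times as high. The short antisense gene THBS1-AS1, which lies inside THBS1, rose 1.92-fold. Its reads are also counted at THBS1, so this is no separate measure. The intronic gene THBS1-IT1 was at 4.98 and 4.38 CPM in the 7TGP-NEG and 6.10 and 5.86 CPM in the 7TGP-POS libraries and did not pass (adjusted p = 0.0681, edgeR with Benjamini-Hochberg).

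Thrombospondin-2, the close relative of thrombospondin-1 that shares its trimeric form and its CD36-binding repeats, is encoded by THBS2 (ENSG00000186340, chromosome 6, 169215780 to 169254044 on GRCh38, reverse strand). THBS2 had 115 and 96 counts in the 7TGP-NEG and 47 and 39 in the 7TGP-POS libraries. These are levels of 1.81 and 1.56 against 0.748 and 0.744 CPM, with no overlap between the lines. THBS2 fell by 1.17 on the log2 scale, SE 0.25 and a 95% interval of -1.70 to -0.65 (adjusted p = 0.00154, edgeR with Benjamini-Hochberg). Its antisense neighbour THBS2-AS1, which covers 62.2% of the span and 76.3% of the longest coding transcript, had 106, 96, 45 and 45 counts and also fell (adjusted p = 0.00435, edgeR with Benjamini-Hochberg). Nearly every count of THBS2 could therefore belong to either gene, and taking off the antisense counts left at most 9.

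Counts at the thrombospondin pair thus moved in opposite directions, at very different levels. Those at THBS2 cannot be told apart from those of THBS2-AS1, so the fall cannot be assigned to THBS2 alone. There were 404 and 453 THBS1 counts per THBS2 count in the 7TGP-NEG libraries and 1820 and 1986 in the 7TGP-POS libraries. Of their relatives, THBS3 fell from 35.1 ± 1.02 to 25.7 ± 5.39 CPM (SD over 2 libraries, adjusted p = 0.0164 by edgeR with Benjamini-Hochberg), and overlaps MTX1, which had more counts. THBS4 was at 3.36 and 3.57 CPM in the 7TGP-NEG and 7TGP-POS line and did not pass, and COMP was too low to test.

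**Figure D3:**
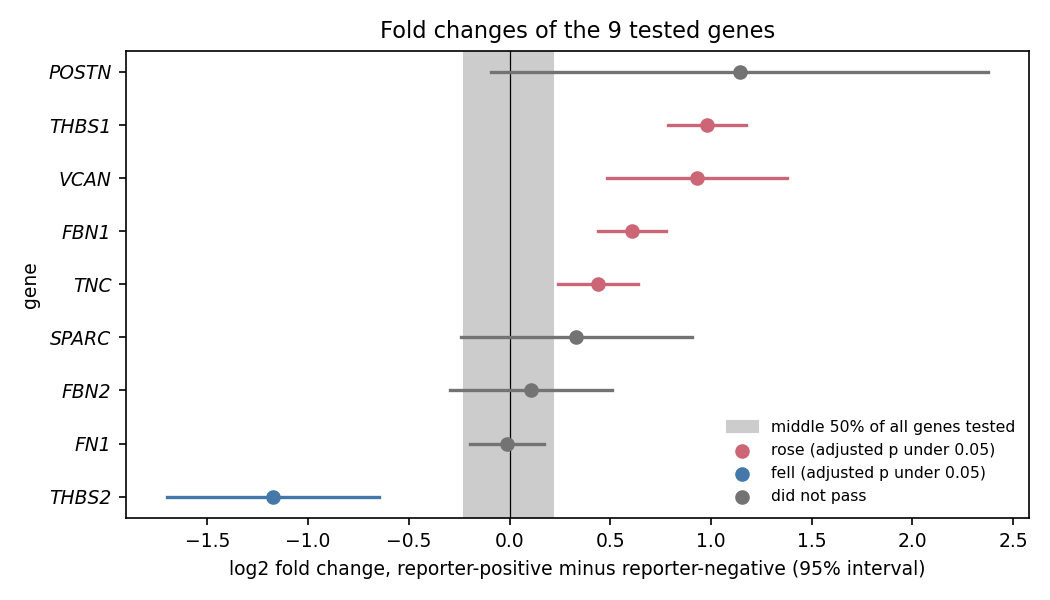
Log2 fold change of the 9 tested genes, reporter-positive minus reporter-negative, with 95% intervals from the fit, in red where the gene rose, blue where it fell and grey where it did not pass. The grey band spans the middle 50% of all genes tested, from -0.22 to 0.21, and the intervals of THBS1, VCAN, FBN1, TNC and THBS2 lie outside 0.

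Fibrillin-1 and fibrillin-2 form the microfibrils that carry elastin and hold latent TGF-beta. FBN1 (ENSG00000166147, chromosome 15, 48408306 to 48645849 on GRCh38, reverse strand) had 4845 and 4636 counts in the 7TGP-NEG and 6670 and 6547 in the 7TGP-POS libraries. Levels were 76.3 and 75.5 CPM in the first line and 106 and 125 CPM in the other, without overlap. Its log2 fold change was 0.61, SE 0.08 and a 95% interval of 0.44 to 0.77 (adjusted p = 9.72e-06, edgeR with Benjamini-Hochberg). FBN1 has the cleanest counts of the genes that moved, since the single gene inside its span, ENSG00000274654, had at most 5 counts in a library.

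FBN2 (ENSG00000138829, chromosome 5, 128257909 to 128659185 on GRCh38, reverse strand) was scarce, with 148 and 210 counts in the 7TGP-NEG and 207 and 151 in the 7TGP-POS libraries. Its levels of 2.33 and 3.42 against 3.30 and 2.88 CPM overlapped between the lines. The fold change was 1.08 with a 95% interval of 0.816 to 1.42 (adjusted p = 0.769, edgeR with Benjamini-Hochberg), and its log2 value ran from -0.14 to 0.41 when single libraries were left out. SLC27A6, a fatty acid transporter gene that shares 30.2% of the FBN2 span on the other strand, had 181, 204, 204 and 116 counts. How many of the FBN2 counts belong to SLC27A6 cannot be told from the table. The third fibrillin gene, FBN3, was at 0.514 and 0.495 CPM in the 7TGP-NEG and 7TGP-POS line and did not pass.

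Fibronectin, the main integrin-binding glycoprotein of provisional matrix and a common marker of mesenchymal cells, is encoded by FN1 (ENSG00000115414, chromosome 2, 215360440 to 215436172 on GRCh38, reverse strand). FN1 had 43104, 41837, 40007 and 37256 counts, and no listed gene overlaps it. Its levels of 679 and 681 CPM in the 7TGP-NEG libraries lay between the 637 and 711 CPM of the 7TGP-POS libraries. The fold change was 0.991 with a 95% interval of 0.873 to 1.13 (adjusted p = 0.949, edgeR with Benjamini-Hochberg). Its direction turned without the 7TGP-POS library numbered 1, to a log2 fold change of 0.07. Inclusion of the alternatively spliced fibronectin exons cannot be read from gene counts.

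Upstream sequence is shown for THBS1, FBN1 and THBS2, chosen because they are the called genes with the motif GGAATG near the start site. For THBS1 and FBN1 the 120 bases before the start site are given, and for THBS2 those from -120 to -51, since the bases between these and the start site lie in annotated exons. The sequences are RefSeq promoter windows on GRCh38.p14, read 5′ to 3′ on the strand of the gene, and capitals mark GGAATG or its reverse complement, the core letters bound by TEAD factors. The stretches shown for FBN1 and THBS2 lie inside the GENCODE spans of these genes, which begin farther upstream.
THBS1, chr15:39580959-39581078, forward strand: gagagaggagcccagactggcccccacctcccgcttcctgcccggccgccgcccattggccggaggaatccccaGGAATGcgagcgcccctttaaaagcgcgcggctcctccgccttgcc
FBN1, chr15:48644971-48645090, reverse strand: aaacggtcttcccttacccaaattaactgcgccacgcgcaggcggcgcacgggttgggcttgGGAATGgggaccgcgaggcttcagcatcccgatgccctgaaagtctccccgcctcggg
THBS2, chr6:169253897-169253966, reverse strand: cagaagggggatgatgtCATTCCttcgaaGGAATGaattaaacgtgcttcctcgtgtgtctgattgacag

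All 10 genes have a window of 300 bases in the RefSeq table, 250 before and 50 after the start site, and motifs, none of which contains another, were searched on both strands of these. GGAATG was found in 4 of the 10 windows (THBS1, THBS2, FBN1 and SPARC) and in 14.0% of all 35116 windows. It starts 46 bases before the start site in THBS1 and 58 before it in FBN1. THBS2 holds the motif on both strands, starting at -103 and -91 relative to its start site. The TCF/LEF core, searched as CTTTG followed by A or T and then by A or T, was in none of the 10 windows and in 13.8% of all windows, which says only that these letters are not in these 300 bases. TGANTCA, the AP-1 motif, was in the POSTN window and in 7.71% of all, and TATAAA was in those of THBS2 and POSTN and in 11.5% of all. The motif was thus present in genes that rose (THBS1, FBN1), in one that fell (THBS2) and in one that did not pass (SPARC).

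Tenascin-C, a multi-armed glycoprotein of stem cell niches and invasive tumour fronts that weakens adhesion to fibronectin, is encoded by TNC (ENSG00000041982, chromosome 9, 115019578 to 115118257 on GRCh38, reverse strand). TNC had 9930 and 7684 counts in the 7TGP-NEG and 11614 and 10295 in the 7TGP-POS libraries. Levels of 156 and 125 CPM stood against 185 and 196 CPM, without overlap but with the widest relative gap between libraries of a line among the 4 abundant genes. The log2 fold change was 0.44, SE 0.09 and a 95% interval of 0.24 to 0.64 (adjusted p = 0.00254, edgeR with Benjamini-Hochberg). The call was lost without the 7TGP-NEG library numbered 2, where the log2 fold change was 0.28 (adjusted p = 0.197 by the same test). TNC lies wholly inside DELEC1 on the other strand, whose counts of 10240, 8048, 12092 and 10667 contain those of TNC. Outside TNC the DELEC1 span held 0.684 to 1.06 counts per kb, whereas the TNC span held 77.9 to 118 counts per kb.

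Versican is encoded by VCAN (ENSG00000038427, chromosome 5, 83471465 to 83582303 on GRCh38, forward strand), which was scarce in both lines. VCAN had 70 and 89 counts in the 7TGP-NEG and 160 and 121 in the 7TGP-POS libraries, or 1.10 and 1.45 against 2.55 and 2.31 CPM. The lines did not overlap, and the log2 fold change was 0.93, SE 0.21 and a 95% interval of 0.48 to 1.38 (adjusted p = 0.00286, edgeR with Benjamini-Hochberg). Without the 7TGP-NEG library numbered 1 the log2 fold change was 0.75 and the call was lost (adjusted p = 0.0555 by the same test). VCAN-AS1, on the other strand inside VCAN, had 44, 40, 83 and 64 counts and rose as well (adjusted p = 0.0169, edgeR with Benjamini-Hochberg). With those taken off, VCAN kept 26, 49, 77 and 57 counts and 1.92 times the level in the 7TGP-POS line.

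**Figure D4:**
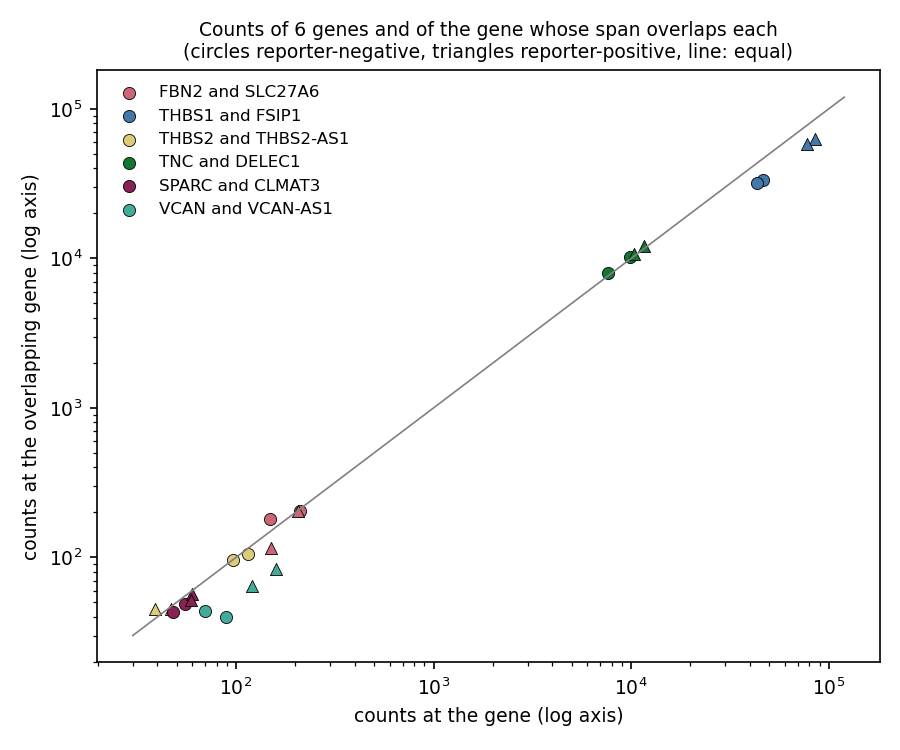
Counts of 6 of the 10 genes in each library plotted against the counts of the gene whose span overlaps each, on log axes, with circles for reporter-negative and triangles for reporter-positive libraries and a line for equal counts. TNC and DELEC1, THBS2 and THBS2-AS1, and FBN2 and SLC27A6 lie near the line, SPARC and CLMAT3 just under it, and THBS1 and VCAN lie under it by more.

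SPARC was scarce, and POSTN and SPP1 were near the lower limit of detection. SPARC (ENSG00000113140, chromosome 5, 151661096 to 151687165 on GRCh38), the gene of a collagen-binding matricellular protein also called osteonectin, had 55 and 48 counts in the 7TGP-NEG and 60 and 59 in the 7TGP-POS libraries. Its levels of 0.866 and 0.781 against 0.955 and 1.13 CPM did not overlap, but the fold change of 1.26 had a 95% interval of 0.846 to 1.87 (adjusted p = 0.458, edgeR with Benjamini-Hochberg). CLMAT3, which overlaps its 5′ part on the other strand, had 49, 43, 57 and 52 counts, so few SPARC counts can be assigned to SPARC with certainty.

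POSTN (ENSG00000133110, chromosome 13, 37562583 to 37598844 on GRCh38), which encodes the integrin ligand periostin, had 3 and 14 counts in the 7TGP-NEG and 19 and 16 in the 7TGP-POS libraries. The 7TGP-POS libraries, at 0.303 and 0.305 CPM, were close to the second 7TGP-NEG library at 0.228 CPM, and the first stood apart at 0.0472 CPM. The fold change of 2.21 had a 95% interval of 0.940 to 5.18 (adjusted p = 0.192, edgeR with Benjamini-Hochberg). It rested on single libraries, with a log2 fold change of 0.42 without the 7TGP-NEG library numbered 1 (adjusted p = 0.784) and 2.63 without the one numbered 2 (adjusted p = 0.0348, by the same test). SPP1 (ENSG00000118785, chromosome 4, 87975650 to 87983426 on GRCh38), the gene of the phosphoprotein osteopontin, had 3, 1, 3 and 3 counts, none above the limit of 3 counts that a count of 0 allows, so no fold is given. A difference in SPP1 was not detectable at this depth.

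Each companion list held genes that rose and genes that fell. Relatives of the 10 genes in the same protein families or in the same fibres were called in 24 of 63 cases tested (38.1%, against 22.4% of all genes and 29.5% of protein-coding genes), with 16 higher, 8 lower and a median log2 fold change of -0.02. TGFBI, a secreted integrin ligand related to periostin, rose from 10.3 ± 0.517 to 53.7 ± 0.0901 CPM (SD over 2 libraries, adjusted p = 1.01e-14 by edgeR with Benjamini-Hochberg). SRPX and SRPX2, a pair of sushi-repeat proteins, rose 1.96-fold and 1.86-fold, though both share reads with overlapping genes that had more counts, ENSG00000250349 and SYTL4. TNXB, a tenascin gene of the MHC region that overlaps the more highly counted ATF6B, fell from 49.8 ± 2.02 to 27.9 ± 2.62 CPM (SD over 2 libraries, adjusted p = 1.24e-07 by edgeR with Benjamini-Hochberg). The other tenascin genes, TNR at 20.4 and 18.2 CPM and TNN at 3.11 and 3.82 CPM in the 7TGP-NEG and 7TGP-POS line, did not pass.

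Receptors of these proteins were called in 8 of 23 cases (34.8%, near the 29.5% of protein-coding genes and above the 22.4% of all genes), with 6 higher, 2 lower and a median log2 fold change of 0.10. SDC2, a heparan sulphate co-receptor, rose from 11.5 ± 0.169 to 23.1 ± 1.92 CPM, and the innate immune receptor gene TLR2 rose from 6.54 ± 1.13 to 18.0 ± 1.21 CPM (SD, n = 2). ITGB8, a partner of the alpha-v integrin chain that activates latent TGF-beta, rose 1.45-fold (adjusted p = 1.51e-05, edgeR with Benjamini-Hochberg). ITGB3, the beta chain of a receptor for fibronectin, osteopontin and thrombospondin-1, fell from 19.2 ± 0.0995 to 8.92 ± 0.367 CPM (SD, n = 2) and overlaps the more highly counted ENSG00000259753. The fibronectin receptor chains ITGA5, at 174 and 165 CPM, and ITGB1, at 975 and 1022 CPM in the 7TGP-NEG and 7TGP-POS line, did not pass, and nor did the thrombospondin receptor genes CD47 and CD36. These 4 genes were picked with their values in view. ITGA5 overlaps GPR84-AS1, which had 103% as many counts, and CD36 overlaps ENSG00000232667, which had 42.5% as many.

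Enzymes that cut, process or crosslink the 10 proteins were called in 14 of 33 cases (42.4%, beside 29.5% of protein-coding and 22.4% of all genes), with 12 higher, 2 lower and a median log2 fold change of 0.22. TGM2, a transglutaminase that crosslinks fibronectin, rose from 168 ± 3.82 to 252 ± 7.82 CPM (SD over 2 libraries, adjusted p = 4.31e-06 by edgeR with Benjamini-Hochberg), and overlaps RPRD1B, which had 18.8% as many counts. The versican-cleaving protease gene ADAMTS9 rose 1.58-fold and overlaps ADAMTS9-AS2, which had 39.7% as many. FAM20C, the secretory pathway kinase that phosphorylates osteopontin, rose 1.72-fold and overlaps ENSG00000240093, which had 40.4% as many counts. POGLUT3, a glucosyltransferase of secreted EGF-repeat proteins including the fibrillins, rose 1.44-fold. The call count went down to 9 without either 7TGP-NEG library.

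TGF-beta inputs to matrix genes gave 3 higher and 4 lower of 13 (53.8% called, beside 29.5% of protein-coding and 22.4% of all genes), with a median log2 fold change of -0.08. The ligand gene TGFB2, which overlaps TGFB2-OT1 with 19.3% as many counts, rose from 44.4 ± 1.78 to 65.6 ± 0.108 CPM and the signal transducer gene SMAD2 from 53.6 ± 0.0940 to 77.6 ± 2.73 CPM (SD, n = 2). SMAD3, the other TGF-beta receptor-activated transducer, fell from 156 ± 6.54 to 120 ± 13.1 CPM (SD over 2 libraries, adjusted p = 0.00138 by edgeR with Benjamini-Hochberg). Without the 7TGP-NEG library numbered 1, 3 genes of the list were called higher and 1 lower.

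**Figure D5:**
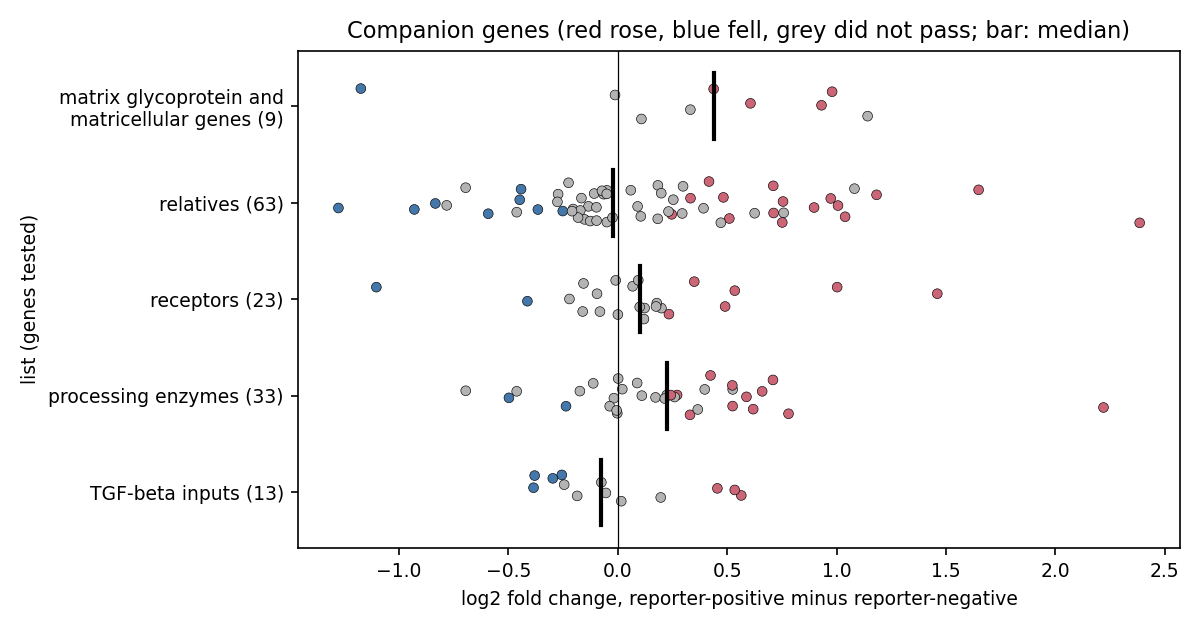
Log2 fold changes of the 9 tested matrix genes and of 4 companion lists, with red for genes that rose, blue for genes that fell, grey for those that did not pass and a bar at the median of each list. The medians are 0.44 for the matrix genes and -0.02, 0.10, 0.22 and -0.08 for relatives, receptors, processing enzymes and TGF-beta inputs, and each list holds genes on both sides of 0.

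Genes beside the 10 members were compared, 5 tested genes on each side that do not overlap the member. The farthest lay 1076 kb from THBS1, 1245 kb from FBN2 and 1882 kb from VCAN. None of the 10 neighbours of FBN1 was called, nor were any of the 10 of FN1. Beside 11.6% of all genes that rose, 4 of 10 neighbours rose and none fell around each of THBS1, VCAN and FBN2, the last of which did not pass itself, with median log2 fold changes of 0.44, 0.28 and 0.35. THBS2 and SPARC each had 1 neighbour that rose and none that fell, and POSTN had 2 and none. TNC had 2 neighbours that rose and 2 that fell, and SPP1 2 and 1. The largest log2 fold change among the neighbours of TNC was 2.40. Neighbours named after their values were seen were GPR176 beside THBS1, an orphan receptor gene with a log2 fold change of 0.49, and EDIL3 beside VCAN, a secreted integrin ligand gene with 0.58.

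The profile nearest to THBS1, the called gene with the smallest adjusted p, was sought among 12826 genes with a mean of at least 10 CPM, by Euclidean distance of log2 CPM centred on each gene over the 4 libraries. The 3 nearest were the long noncoding RNA ENSG00000235609 (distance 0.00663), SRPX (0.0237) and TBC1D8B (0.0257), with folds of 1.97, 1.96 and 1.96. None overlaps THBS1. Over 4 libraries such likeness is little more than an equal fold between the lines.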

How the data were processed

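The data were raw counts for Ensembl gene IDs in 4 library columns, as the authors deposited them, and no value was altered. HISAT2, Bowtie2, DESeq2 and hg19 are named without roles or versions, per the submitters' processing notes. What counted the reads, on which annotation and with which strand setting, is not given in the sources used here. Each of the 43714 IDs is in GENCODE release 29 on GRCh38, from which positions and lengths were taken. In 6087 pairs where a gene of at least 100 counts lies wholly inside another, 3623 of them on opposite strands, the outer gene had at least as many counts in all 4 libraries. Deposited counts were therefore read as covering whole gene spans on both strands, with a read counted at each gene it overlaps.

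All 4 libraries share 1 batch label and gave 55894092 to 63034563 counts. After TMM scaling and filterByExpr (minimum count 10, minimum total 15), the lines were compared with the robust quasi-likelihood F test of edgeR 4.0.16 (R 4.3.3), a model of line alone, and p was adjusted by Benjamini-Hochberg over 30952 genes, with a threshold of 0.05. Standard errors are the absolute log2 fold change over the root of F, and 95% intervals use the degrees of freedom of the test. CPM use TMM-scaled library sizes. On simulated counts for this comparison over 30364 genes, the test found 45 of 66 true changes of 1.5-fold, 53 of 69 of 2-fold and 61 of 65 of 4-fold. Of its calls, 14.1% were unchanged genes, above the nominal 5%. Far fewer genes were changed there than were called in the data, and the scarcest genes were not among them. These shares need not hold for the calls given here. No library repeats another: within a line, counts differed beyond sampling noise, with a chi-square of 37.0 and 19.3 per degree of freedom.

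The members, companion lists and markers were chosen with earlier results of these data known. Named genes are the 10 members, up to 4 genes per companion list with the smallest adjusted p, overlapping genes with at least 10% of a member's counts, the 3 nearest profiles of the leading member, and others as said. Paralogues of members (THBS3, THBS4, COMP, FBN3, TNR and TNN) are named beside them outside that rule, and 1 gene that the rule names is not reported here. Alternatives were other scalings (RLE, total count), other filters (none, or 1 CPM in 2 libraries), other tools (DESeq2 1.42.0 and limma-voom from limma 3.58.1), a block for the library number, each library left out, genes without an overlapping gene, and taking overlapping counts off.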

Additional observations from a re-analysis of the deposited data

How the results depend on the processing

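Calls and directions of THBS1, FBN1 and THBS2 held under every alternative that gave them a value, with log2 fold changes of 0.89 to 1.04, 0.48 to 0.72 and -1.28 to -1.06. Over all alternatives, 97 of 102 values of single matrix genes kept their direction and, where adjusted p was given, their side of the threshold. The 5 others came from leaving out a library. FN1 turned to 0.0674 without the 7TGP-POS library numbered 1, and FBN2 to -0.14 without the 7TGP-NEG library numbered 1. VCAN stood at 0.75 without the latter and was no longer called. Without the 7TGP-NEG library numbered 2, TNC stood at 0.28 and was no longer called, and POSTN at 2.63 was called. DESeq2 gave POSTN no adjusted p. Ranges without single libraries were -0.10 to 0.07 for FN1, -0.14 to 0.41 for FBN2, 0.28 to 0.61 for TNC, 0.75 to 1.14 for VCAN and 0.42 to 2.63 for POSTN, and 3 to 4 of the 10 genes rose and 1 fell, though POSTN took the place of TNC in 1 of these fits. Taking overlapping counts off left no testable value for FBN2, THBS2, TNC and SPARC, and gave log2 fold changes of 0.91 for THBS1 and 0.94 for VCAN.

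Among genes without an overlapping gene, where of the 10 genes only FN1 and POSTN were testable, 0 rose and 0 fell, and over all such genes 1111 rose and 1093 fell, with 12, 3, 6 and 4 called among relatives, receptors, processing enzymes and TGF-beta inputs. This alternative tests fewer genes by construction. Total count scaling gave 2270 higher and 4032 lower genes, against 3576 and 3366, so that higher genes were a smaller share, and moved the median of all genes by -0.08. Without single libraries, 2333 to 4704 genes rose and 2025 to 4457 fell, and 17 to 27 relatives, 5 to 13 receptors, 9 to 16 processing enzymes and 4 to 8 TGF-beta inputs were called; the cause was not tested. Libraries with the same number did not deviate together (Pearson coefficient 0.01 across genes), so the numbers are taken as names only. With the number as a replicate block, 4 of the 10 genes rose and 1 fell, as without it, and 4175 and 4051 of all genes. Counts of at most 160 per library limit VCAN, THBS2, SPARC and POSTN, and the 3 or fewer counts of SPP1 allow no statement.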

Other observations

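Among the relatives and enzymes are genes outside the naming rule that were picked after their values were seen. CTHRC1, a secreted collagen triple helix repeat protein, rose from 1.75 ± 0.332 to 5.50 ± 0.0519 CPM (SD over 2 libraries, adjusted p = 3.72e-07 by edgeR with Benjamini-Hochberg). CCN1, a matricellular integrin ligand, rose from 229 ± 4.48 to 375 ± 23.1 CPM (SD over 2 libraries, adjusted p = 8.36e-07 by edgeR with Benjamini-Hochberg). The versican-cleaving protease gene ADAMTS5 rose from 0.186 ± 0.129 to 0.867 ± 0.0119 CPM (SD, n = 2), on 6, 17, 55 and 45 counts, and overlaps ENSG00000223563. FBLN1, which encodes the fibronectin-binding protein fibulin-1, rose 2.27-fold from 1.31 CPM. IGFBP7, a secreted insulin-like growth factor binding protein found in matrix whose gene overlaps POLR2B, fell from 429 ± 13.7 to 316 ± 13.4 CPM (SD, n = 2), and ECM1 fell from 47.1 ± 4.51 to 31.3 ± 0.142 CPM (SD, n = 2). MMRN2, an elastin microfibril interface protein of vessels that overlaps ADIRF-AS1, fell from 14.5 ± 0.352 to 7.59 ± 0.283 CPM (SD, n = 2).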
